A study of Mus musculus with 4 samples.

Results

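The loci that encode antigen receptors, Igh, Igk, Tcra and Tcrb, were examined in Hi-C data from mouse haematopoietic stem cells (HSCs), cells that stand upstream of the B and T lymphocytes in which these loci are rearranged. The measurements were the positions of topologically associating domains (TADs), stretches of chromosome that contact themselves more than their surroundings. The 4 loci were taken as windows with approximate edges in the mm9 build: Igh on chromosome 12 from 114.4 to 117.25 Mb, Igk on chromosome 6 from 67.5 to 70.7 Mb, Tcra on chromosome 14 from 52.9 to 54.9 Mb, and Tcrb on chromosome 6 from 40.8 to 41.5 Mb. Every TAD that overlapped a window and every TAD edge inside it was a member, which gave 15 of the 4628 TADs in both lists, 6 of 2318 in the fetal list and 9 of 2310 in the adult list. The loci were chosen from these same TAD positions with results already known, so all counts below are descriptions and none was tested.

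The series compared HSCs from fetal liver at embryonic day 14.5 with HSCs from bone marrow of mice 6 to 8 weeks old, with 2 Hi-C samples of each. All mice were of the strain B6129SF1, no mutation or treatment is named, and both tissues were sorted with the same gate, Lin-Sca1+cKit+CD135-, which keeps early stem and progenitor cells without lineage markers and leaves out cells carrying the receptor Flt3 (CD135). Whether animals were pooled is not stated in the labels. The data held no expression values, so the identity of the cells and the rearrangement of the loci could not be checked against markers. Each cell type had a single TAD list, so no value has a replicate error, and how far repeat samples would differ is unknown. The contacts behind each list are unknown in number, and positions moved in steps of 10 kb.

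An antigen receptor gene is assembled in a developing lymphocyte from separate variable (V), joining (J) and, at some loci, diversity (D) segments. The RAG1 and RAG2 recombinase cuts these segments and brings them together. Igh and Igk encode the heavy chain and the kappa light chain of antibodies, and Tcra and Tcrb encode the alpha and beta chains of the T-cell receptor. The V segments spread over long stretches of chromosome. Distant V segments must therefore come close to the J and constant (C) segments, and to D segments where present, before they can be joined. In lymphocyte precursors these loci are known to contract, and the architectural protein CTCF and the cohesin ring take part in that folding.

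The order of the segments was taken from a RefSeq gene table of another build, GRCm38.p6, of which no position was used. In that table Igh held 215 segments, of which 183 were V, 20 D, 4 J and 8 C, with pseudogenes counted. Its constant genes lay at the low-coordinate end, starting with Igha, and its V segments ran up to Ighv1-86. The other 3 loci began with V segments at the low-coordinate end. Igk held 162 V, 5 J and 1 C segment and ended with Igkc. Tcra, with the delta-chain segments nested in it, held 136 V, 2 D, 62 J and 2 C segments and ended with Trac, the alpha constant gene. Tcrb was the smallest, with 35 V, 2 D, 14 J and 2 C segments, and held a group of trypsinogen genes such as Prss1, Prss2, Try4 and Try10 among its segments. No genome of the mm9 build was at hand, so no sequence of a boundary is shown and single segments were not placed in TADs.

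**Figure D1:**
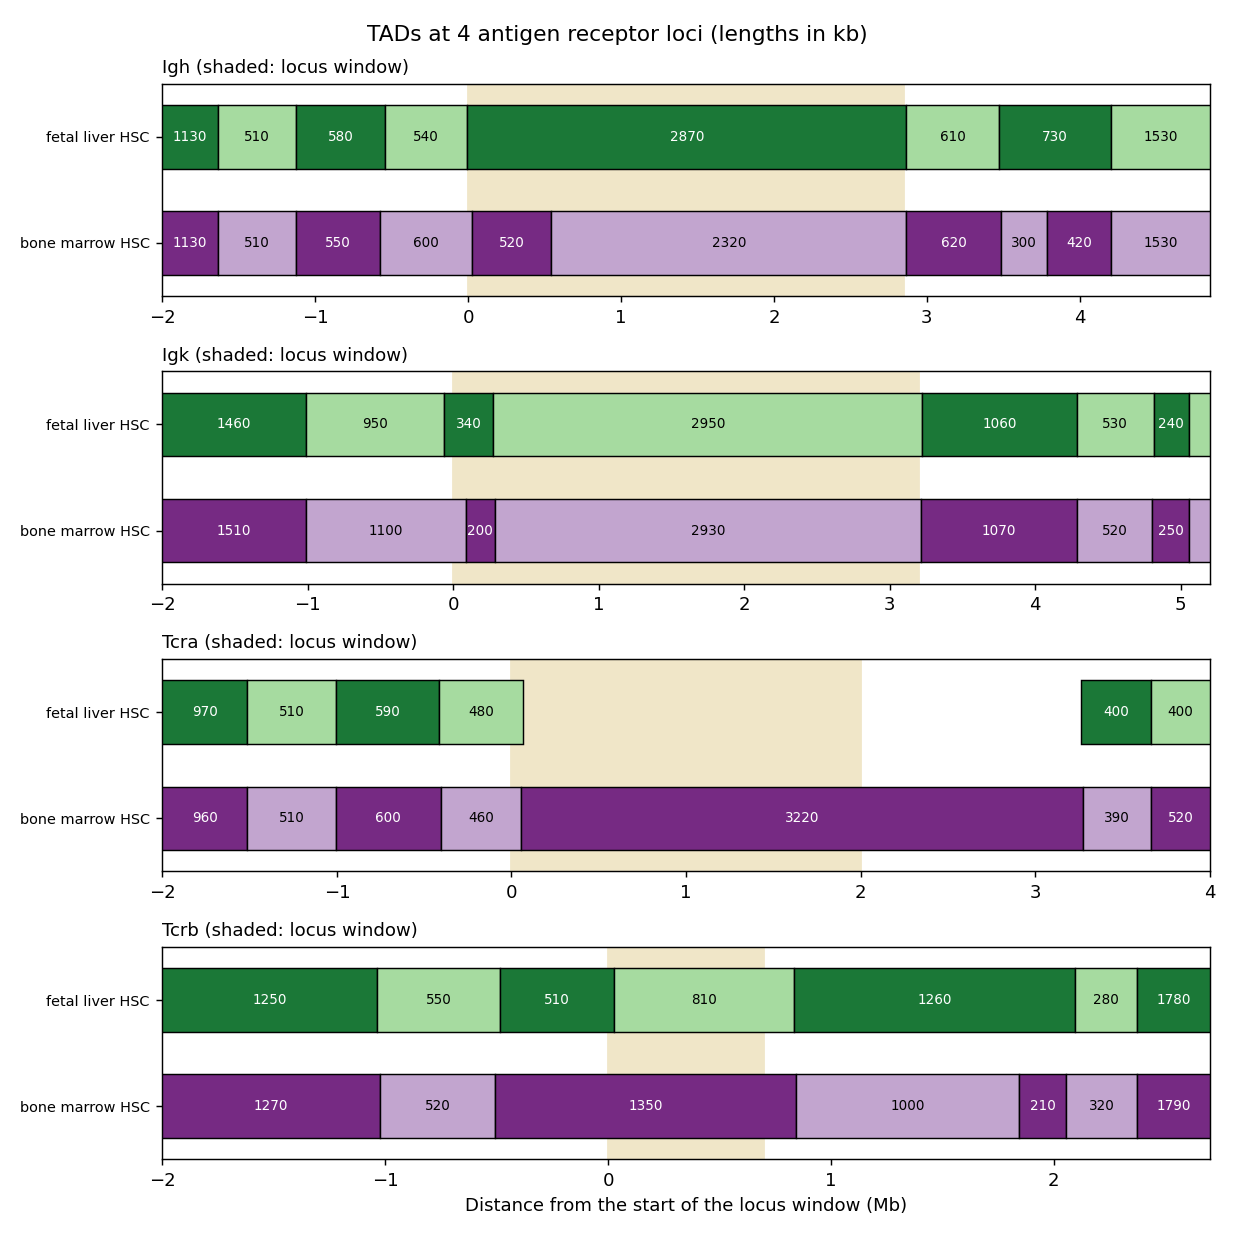
TADs of the fetal liver list (upper row) and the bone marrow list (lower row) at the 4 loci, plotted by distance from the start of the locus window in Mb, with 2 Mb on each side. Blocks are TADs with their lengths in kb, and shades alternate to separate neighbours. The shaded area is the window, and stretches without a block hold no TAD. Igh was 1 block of 2870 kb in the fetal list and mostly 2 blocks of 520 and 2320 kb in the adult list, and Tcra lay in an adult TAD of 3220 kb where the fetal list had none.

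The heavy-chain locus Igh lay in a single TAD in fetal HSCs and was divided in adult HSCs. The fetal TAD, from 114395001 to 117265000 on chromosome 12, was 2870 kb long and covered 100% of the window, starting 5 kb before it and ending 15 kb after it. The adult list had 3 TADs over the window. One of 600 kb, from 113825001 to 114425000, reached only 25 kb into it. The next, of 520 kb, ran from 114425001 to 114945000, and the last, of 2320 kb, from 114945001 to 117265000. A boundary is written here as the last base before it. The high edge of the locus, on the V side, was at 117265000 in both lists, and the low edge, on the constant side, was 30 kb apart, at 114395000 in the fetal and 114425000 in the adult list.

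The adult boundary at 114945000 was the feature that separated the lists at Igh. It lay 545 kb above the window start, 19.1% of the way from the constant side to the V side, and the nearest fetal boundary was 550 kb away. The 520 kb TAD on the constant side had no fetal counterpart, which required an overlap of at least 80% of both TADs. The 2320 kb TAD passed that limit narrowly, with 80.8% of the fetal TAD. By the definition of a divided TAD (each end no more than 40 kb from a boundary of the other list, with a further such boundary inside and over 40 kb from both ends), the fetal Igh TAD was divided in the adult list, as were 6.82% of all fetal TADs. Which Igh segments flank the adult boundary was not analysed here.

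A window as long as that of Igh, 2850 kb, seldom fitted into a single TAD. Of 892 such windows laid end to end along all chromosomes, 1.57% lay inside 1 fetal TAD and 1.79% inside 1 adult TAD, and the median window held 3 boundaries in each list. The Igh window held 0 fetal and 2 adult boundaries. The adult one at 114425000, 25 kb inside the approximate edge, was 30 kb from a fetal boundary 5 kb outside it. Over chromosome 12 as a whole there were 0.93 fetal and 0.888 adult boundaries per Mb.

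The kappa locus Igk was placed almost alike in both lists. A long TAD held 91.4% of the window in the fetal list, from 67775001 to 70725000, or 2950 kb, and 91.1% in the adult list, from 67785001 to 70715000, or 2930 kb. The ends differed by 10 kb on each side, and the TADs shared 99.3% of the longer one. The upper end lay 25 kb beyond the window in the fetal and 15 kb beyond it in the adult list, on the side of the J segments and Igkc. The next genes in the RefSeq order there are Rpia, a pentose phosphate enzyme, and Eif2ak3, a kinase of the stress response of the endoplasmic reticulum.

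At the low-coordinate end of Igk, the distal V side, both lists set off a short TAD. It measured 340 kb in fetal HSCs, from 67435001 to 67775000, and 200 kb in adult HSCs, from 67585001 to 67785000. The outer edges of these short TADs were 150 kb apart, and neither TAD had a counterpart in the other list. An adult TAD of 1100 kb reached 85 kb into the window from below. The genes that neighbour this end in the RefSeq order include Il12rb2 and Il23r, subunits of cytokine receptors. Of 791 windows as long as that of Igk, 3200 kb, 0.632% lay inside 1 fetal TAD and 0.759% inside 1 adult TAD, and the Igk window itself did so in neither list.

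The alpha-chain locus Tcra showed the widest difference in TAD coverage between the lists among the 4 loci. In adult HSCs a TAD of 3220 kb, on chromosome 14 from 52955001 to 56175000, held 1945 kb of the 2000 kb window. In fetal HSCs no TAD was listed from 52965001 to 56165000, a stretch of 3200 kb that took in 1935 kb of the window. Only 65 kb of the locus, at the distal V side, lay in a fetal TAD, which ran from 52485001 to 52965000 and had an adult counterpart from 52495001 to 52955000. The window thus was covered to 3.25% in fetal HSCs and to 100% in adult HSCs. Both edges of the empty fetal stretch were within 10 kb of the ends of the adult TAD, so the outer limits coincided while the interval was a TAD in one list and not in the other. Coverage is not given for other windows of this length, so how common a value of 3.25% is was not tested. Empty intervals also occurred elsewhere: away from chromosome ends the lists held 55 (fetal) and 61 (adult) in total. Half-way lengths of these (medians) were 4720 kb (fetal) and 5130 kb (adult).

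The adult TAD was wider than the locus. It ended 1275 kb above the window, on the side of Trac, and the locus made up 60.4% of it. Next in the RefSeq order beyond Trac come Dad1, a subunit of the oligosaccharyltransferase complex, and Abhd4, a lipid hydrolase. On the V side the neighbours were olfactory receptor genes, among them Olfr1510 and Olfr1511.

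This arrangement occurred at no other empty stretch. The fetal list had 55 stretches without a TAD, not counting chromosome ends, and the Tcra stretch was the 1 whose edges both lay within 40 kb of the ends of a single adult TAD, or 1.82%. The count was also 1 at limits of 10 kb and of 100 kb. In the opposite direction, 0 of 61 adult stretches matched a single fetal TAD. Not every stretch could match: 23 fetal and 16 adult stretches held no TAD of the other list. By length, 27 fetal stretches were shorter than the longest fetal TAD (4690 kb). The same held for 22 adult stretches and the longest adult TAD (4670 kb). A match needs a TAD of the other list, against whose longest TAD the stretches were not counted. The shares of 55 and 61 thus do not measure how rare such a match is. Adult TADs wholly covered 5 of the 55 fetal stretches, and the other 4 were covered by 2 or more adult TADs each. In the opposite direction, fetal TADs wholly covered 12 of the 61 adult stretches, each by 2 or more TADs. The Tcra stretch was among the shorter fetal ones: 7 fetal stretches were 3200 kb or less, against a median of 4720 kb. The fetal list did hold 42 TADs of at least 3200 kb. Of 1277 windows as long as that of Tcra, 5.79% lay inside 1 fetal TAD and 5.56% inside 1 adult TAD. The Tcra window did so in neither list, since the adult TAD began 55 kb inside it. The contacts within the empty stretch were not analysed here, so a lack of contacts, a lack of mapped reads and an uncalled TAD cannot be told apart.

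The beta-chain locus Tcrb was held by a TAD in both lists, with a different low-coordinate limit. The fetal TAD ran on chromosome 6 from 40825001 to 41635000, or 810 kb, and held 675 kb of the 700 kb window. The remaining 25 kb, at the low-coordinate end of the window, fell in a fetal TAD of 510 kb from 40315001 to 40825000. In the adult list a single TAD of 1350 kb, from 40295001 to 41645000, held the whole window together with 505 kb below it. The outer limits were close, 20 kb apart below and 10 kb apart above, and the nearest adult boundary to 40825000 was 530 kb away. The adult Tcrb TAD was thus divided in the fetal list, as were 5.71% of all adult TADs.

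Igh and Tcrb therefore differed in opposite directions, Igh with the extra boundary in adult HSCs and Tcrb with the extra boundary in fetal HSCs. The Tcrb boundary lay only 25 kb inside the approximate window edge, and which genes lie on either side of it was not analysed here. Below Tcrb, Moxd2 and Mgam come next in the RefSeq order. At the high-coordinate end the TADs ended 135 kb (fetal) and 145 kb (adult) beyond the window. The neighbours on that side are Ephb6, an Eph-family receptor, and the calcium channel genes Trpv6 and Trpv5. Single TADs are common at this scale: of 3660 windows of 700 kb, 35.1% lay inside 1 fetal TAD and 32.3% inside 1 adult TAD.

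Igh, Igk and Tcra lay in TADs that were long for their list. The TAD that held most of Igh had 2870 kb in fetal HSCs, where 2.98% of TADs were as long or longer, and 2320 kb in the adult list, where 5.24% were. For Igk the shares were 2.46% (fetal) and 2.34% (adult), and for Tcra 1.65% (adult). A large locus is more likely to fall in a long TAD, because long TADs hold more of the genome. By bases rather than by TADs, 10.2% of all fetal TAD sequence lay in TADs at least as long as that of Igh, and 8.68% in TADs at least as long as that of Igk. In the adult list these were 16.4% for Igh, 8.55% for Igk and 6.33% for Tcra. Tcrb stood in the middle of the range, at 73.3% (fetal) and 41.3% (adult). The median TAD length was 790 kb (fetal) and 760 kb (adult).

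**Figure D2:**
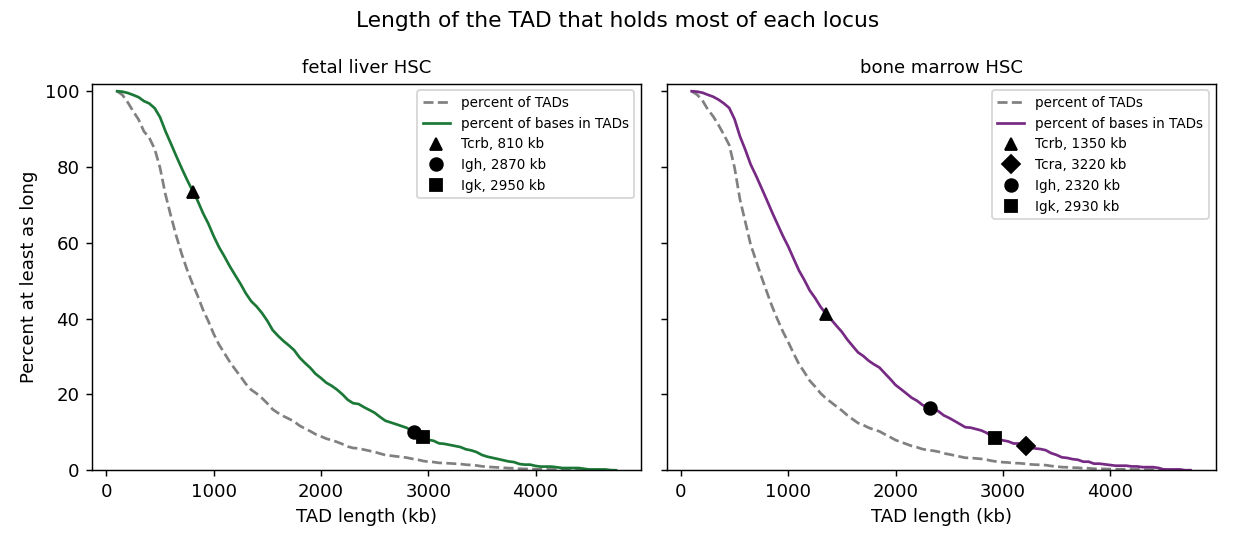
Length of the TAD that holds most of each locus, against all TADs of the fetal liver list (left) and the bone marrow list (right). The x axis is TAD length in kb, the dashed line the percent of TADs and the solid line the percent of TAD bases in TADs at least that long, and symbols are the loci placed on the solid line. Igh, Igk and, in the adult list, Tcra sit at lengths of 2320 to 3220 kb, Tcrb at 810 and 1350 kb, and Tcra is missing on the left because no fetal TAD held most of it.

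How much of each locus was held together was expressed as the share of pairs of 10 kb bins that lay in the same TAD. All 40470 pairs of Igh did so in fetal HSCs (100%), against 68.9% in adult HSCs. Windows of the same length had medians of 32.6% (fetal) and 29.5% (adult). The Igh value was reached by 1.57% of windows (fetal) and 5.38% (adult). With the Igh window 100 kb wider at each edge, its shares were 88.7% (fetal) and 60.9% (adult). Igk had 84.5% of pairs in a shared TAD in the fetal and 83.7% in the adult list, against window medians of 29.3% and 27.6%, and 83.6% were held together in both lists.

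Tcra had 0.0754% of its pairs in a shared TAD in fetal HSCs and 95.1% in adult HSCs, where the window medians were 41.3% and 39.1%. The Tcra value was reached by 93.1% of windows (fetal) and 6.26% (adult). Tcrb had 94.4% in the fetal and 100% in the adult list, and its window medians were 71.2% and 65.8%. The Tcrb value of 94.4% rests on the boundary near the window edge: it was 100% with windows 100 kb narrower at each edge and with bins of 50 kb, which leaves no difference between the lists. For the other loci the sign of the difference was the same under each alternative edge, bin size and distance tried.

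The difference between the lists, adult minus fetal, was -31.1 percentage points at Igh, -0.833 at Igk, 95.03 at Tcra and 5.63 at Tcrb. Among windows of the same length, a difference at least that far from 0 occurred in 6.05% for Igh, 51.8% for Igk, 1.10% for Tcra and 20.2% for Tcrb. A difference as large as that of Igk was thus common among windows, and a difference as large as that of Tcra was seen in few. The Tcra difference restates the empty fetal stretch described above. Since the loci were chosen with these positions known, the shares do not measure how rare such a locus is. These shares describe the lists; windows along a chromosome are not replicates.

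**Figure D3:**
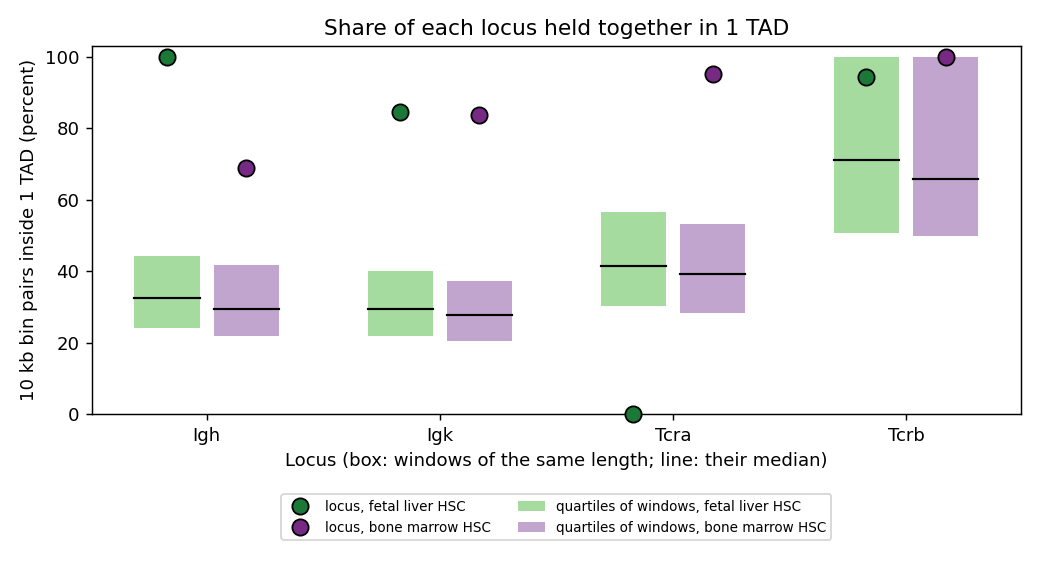
Percent of 10 kb bin pairs of each locus that lie inside 1 TAD (circles), for fetal liver and bone marrow HSCs, with windows of the same length along all chromosomes as boxes (quartiles) and lines (median). Circles lie above the boxes at Igh and Igk in both lists; at Tcra the adult circle is at 95.1% and the fetal circle at 0.0754%; at Tcrb both lie within the boxes.

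Boundaries inside the windows were few. The fetal list had 3, of which 1 lay in Igk, 1 in Tcra and 1 in Tcrb. The adult list had 5, of which 2 lay in Igh, 2 in Igk and 1 in Tcra. Within 40 kb of a boundary of the other list lay 2 of the 3 fetal boundaries and 3 of the 5 adult boundaries, against 83.4% of all 2393 fetal and 83.5% of all 2391 adult boundaries. With 3 and 5 boundaries, and loci chosen on these positions, no difference from the whole lists was read from these counts. The boundaries without a partner were 114945000 in Igh and 67585000 in Igk in the adult list, and 40825000 in Tcrb in the fetal list.

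Of the TADs over the loci, 3 of 6 fetal and 5 of 9 adult ones had a counterpart in the other list, against 73.4% of all fetal and 73.7% of all adult TADs. TADs that adjoin share a boundary, so the members are not independent of each other, and no difference was read from these counts either.

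Most boundaries at the loci were near their approximate edges. Within 100 kb of a window edge, on either side, lay 6 fetal boundaries, of which 4 had an adult partner, and 5 adult boundaries, of which 4 had a fetal partner. Over the whole lists 83.4% of fetal and 83.5% of adult boundaries had a partner, and no difference was read from so few. More than 100 kb from both edges, the fetal list had 1 boundary, at 67775000 in Igk, and the adult list had its partner at 67785000 and the boundary at 114945000 in Igh. Some boundaries stood just inside or just outside a window, and their count follows the edge chosen. The low Igh edge was 5 kb outside in the fetal and 25 kb inside in the adult list, and the low Igk edge was 65 kb outside in the fetal and 85 kb inside in the adult list.

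Around the loci most boundaries of each list had a partner in the other. In the 2 Mb on each side of the 4 windows, a width chosen after seeing the data, the fetal list had 23 boundaries, of which 22 had a partner within 40 kb, and the adult list had 23, of which 21 had one. At identical positions lay 11 of them, and 18 in each list were within 10 kb of a partner. Over the whole lists, 83.4% of fetal and 83.5% of adult boundaries had a partner within 40 kb. No whole-list share is given for identical positions or for 10 kb. No difference from the whole lists was read from the flank counts. At Tcra all 5 flanking boundaries of each list had a partner within 10 kb, including the one at the upper border of the empty fetal stretch. At Igh, 4 of 7 flanking boundaries in each list were at the same position.

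**Figure D4:**
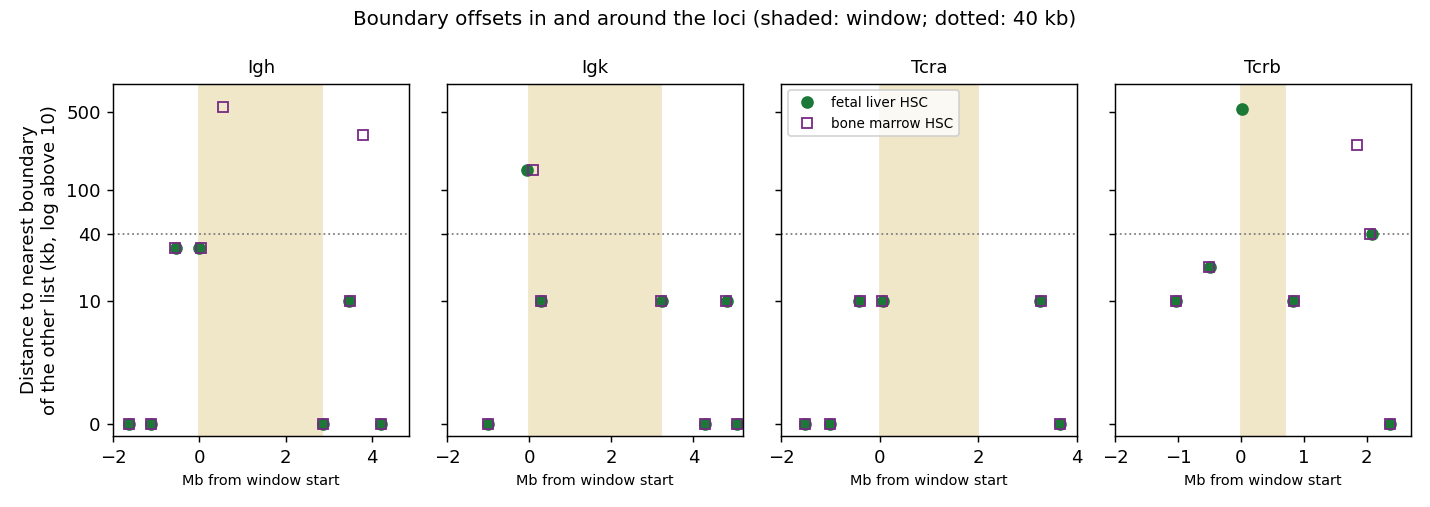
Distance from each boundary to the nearest boundary of the other list in kb (y axis, logarithmic above 10 kb), by position in Mb from the start of the window, in the 4 windows (shaded) and 2 Mb on each side. Filled circles are fetal liver and open squares bone marrow boundaries, and the dotted line is 40 kb. The points far above the line are the adult boundary in Igh at 550 kb, the edges below and in Igk at 150 kb, the fetal boundary in Tcrb at 530 kb, and adult boundaries above Igh at 310 kb and above Tcrb at 250 kb.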

How the data were processed

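Values were the start and end of each TAD in base pairs, without a score, in 1 list per cell type that both samples of it name. The authors deposited these lists; the submitters' processing notes name HiC-Pro, GSNAP and the mm9 build, while the TAD caller, its settings and the pooling of samples are not stated in the labels. Sequencing was single-end, per the labels' protocols. The depth is unknown.

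Starts are printed 1-based. Boundaries were distinct TAD starts and ends, counted once where TADs adjoin. Partners lay within 40 kb, counterparts overlapped by 80% of both TADs, and bins of 10 kb belonged to the TAD holding their midpoint. Windows of equal length ran end to end from the first TAD of a chromosome. Scripts used Python 3.11.15, numpy 2.4.6 and pandas 2.3.3, and the functions were tested on simulated data. The loci, the definitions and the alternatives were chosen with earlier results of these data known; all TADs and boundaries of the 4 loci are named. Igl, Tcrg, Rag1, Rag2, Dntt, Il7r, Pax5, Ebf1, Bcl11b and Tcf7 were not placed, for want of an mm9 annotation.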

Additional observations from a re-analysis of the deposited data

How the results depend on the processing

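The window edges moved most values. With windows 100 kb wider at each edge, boundaries inside rose from 3 to 7 (fetal) and from 5 to 7 (adult), shared ones from 2 to 5 and from 3 to 5, fetal TADs with a counterpart from 3 to 7, bases in a TAD from 6.815 to 7.515 Mb (fetal) and from 8.75 to 9.55 Mb (adult), and bin pairs over all 4 loci in a shared TAD went from 75.5 to 66.8% (fetal) and from 80.8 to 73.0% (adult). With windows 100 kb narrower, these were 1 and 2 boundaries, 1 and 1 shared, 2 adult TADs with a counterpart, 6.15 and 7.95 Mb, and 78.5 and 84.8%. Bins of 50 kb gave 76.0 and 79.9%. Pairs at least 500 kb apart gave 75.9 and 74.7%, which turns the order of the lists; the order at each locus did not turn. Without Igh, 3 adult boundaries lay inside and 3 adult TADs had a counterpart. Without Igk these were 3 and 3, with 1 fetal boundary shared, and without Tcra also 1. At identical positions 0 and 0 boundaries were shared. Counterparts numbered 5 (fetal) at 50% overlap, 3 (adult) at 90%, and 3 (adult) by matching of both ends at 40 kb. At 90% the adult TADs of 2320 kb at Igh (80.8%) and of 1100 kb at Igk (86.4%) no longer counted. Wider windows and looser limits admit more by construction. Windows at steps of 10 kb and flanks of 2 Mb or 1 Mb were chosen after seeing the data. With these steps 1.51% and 1.43% of windows of the Igh length lay inside 1 fetal or adult TAD. In the 1 Mb flanks 8 of 9 fetal and 7 of 8 adult boundaries had a partner, against 83.4% and 83.5% over the whole lists, and no difference was read from these counts. Of 62 alternative values for the loci together, 30 were labelled the same and 32 moved. The label did not mean unchanged: smaller changes in a count also received it, such as adult boundaries inside from 5 to 7. No paired analysis was possible because there was 1 list per cell type, and for the same reason no replicate could be left out. The unknown depth limits every comparison.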

Other observations

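Next to the loci, adult boundaries divided 2 further fetal TADs, picked out after their positions were seen. Above Igh, a fetal TAD of 730 kb faced a pair of 300 and 420 kb in adult HSCs, which met at 118185000, 310 kb from the nearest fetal boundary. Above Tcrb, a fetal TAD of 1260 kb faced a pair of 1000 and 210 kb, which met at 42645000, 250 kb from the nearest fetal boundary. Each lay outside the locus window, by 935 kb and 1145 kb.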
